A study of Drosophila melanogaster with 10 samples.

Results

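The genes for the proteins of the mitochondrial ribosome were followed over a course of 12 hours in adult Drosophila melanogaster kept on a diet without yeast. The members were all genes whose current symbol begins with mRpL, for the large subunit, or mRpS, for the small subunit. Of 73 such symbols in the gene table, 64 were named by a probe set with 1 gene, out of 10844 genes named in this way on the array. They comprised 43 mRpL and 21 mRpS genes on 66 probe sets, and each gene was represented by its brightest probe set. A brightness filter set on the whole table left 57 members for testing, 37 of the large and 20 of the small subunit.

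Total RNA of whole animals was hybridised to an Affymetrix Drosophila array, with 1 array for each of hours 1, 2, 3, 5, 6, 7, 9, 10, 11 and 12. The animals grew on standard food until early in the third larval instar and on the same food with yeast left out from then on, and the hours were counted from a start 4 days after the adults had emerged. All 10 arrays formed 1 group, No Yeast (NY), in which every fly shared this history, and hours 4 and 8 gave too little RNA for an array. The flies returned to yeast and those killed before the course are not analysed here, and the labels state neither the strain or genotype nor the sex or number of flies behind an array. No hour was repeated. The tests therefore judge a fitted course against the departures of single arrays from it, and part of those departures may be technical.

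The mitochondrial ribosome translates the few messenger RNAs of the mitochondrial genome, which in animals encode core subunits of the respiratory chain and of the ATP synthase. Its ribosomal RNAs come from the mitochondrial genome, whereas all its proteins are encoded in the nucleus, made in the cytosol and imported. Some of these proteins descend from those of the bacterial ribosome, and others were added in mitochondria. Flight muscle, gut and ovary are among the fly tissues rich in mitochondria, and in RNA of whole flies fewer cells of a type and less RNA per cell cannot be told apart.

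The values were intensities scaled between arrays by the authors, so each gene is compared with itself between hours and no gene's level is set against another's. The median intensity of an array lay between 111.1 and 120. The array of hour 3 stood apart, since 10.9% of the 8380 tested probe sets were there at least 0.5 on the log2 scale above the median of their other arrays. The array of hour 10 held the lowest value of 22.7% of the tested probe sets. On that array the 3′ probe set of the GAPDH control read 4.77 times its 5′ probe set, a measure of RNA integrity or labelling length, against 2.88 to 4.0 on the other 9 arrays. The same ratio of the actin control was 1.84 at hour 10 and between 1.80 and 2.56 elsewhere.

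Of the 9 genes of the pattern without a probe set of their own, mRpL27, mRpL34, mRpL37, mRpL53, mRpS5, mRpS14, mRpS21 and mRpS23 were named by none, and the probe set that names mRpS10 names several genes. The 7 members too dim to test were mRpL1, mRpL18, mRpL19, mRpL21, mRpL32, mRpL52 and mRpS25, whose mean lay under the limit of 93.8. The brightest of them, mRpL1, ranged from 74.0 at hour 10 through a median of 85.6 to 95.8 at hour 6. The small-subunit genes tko and bonsai, the counterparts of bacterial S12 and S15, lack the prefix and were read beside the members.

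**Figure D1:**
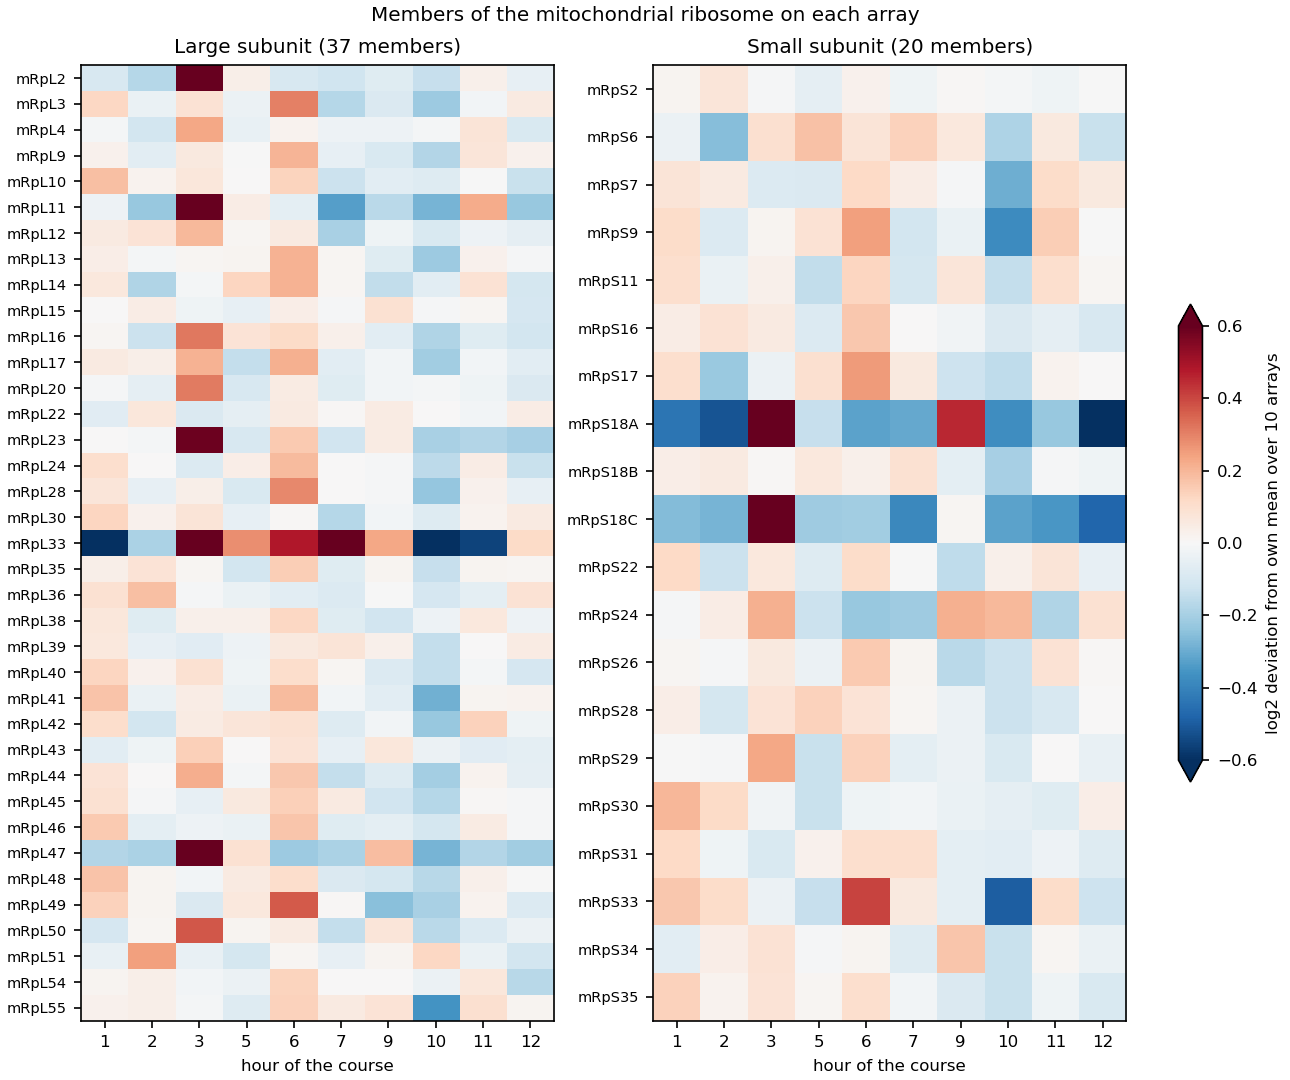
Each row is 1 of the 57 tested members and each column 1 array, at the hour given on the x axis. Colour gives the log2 intensity minus the gene's own mean over the 10 arrays, cut at 0.6 in both directions; most members stay pale, hour 6 is mostly red and hour 10 mostly blue, and mRpS18A, mRpS18C, mRpL33, mRpL47, mRpL11, mRpL2 and mRpL23 carry the darkest cells at hour 3.

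Most mitoribosomal transcripts varied little over the 12 hours. The standard deviation over the 10 arrays had a median of 0.11 on the log2 scale among the 57 members, against 0.13 among all tested probe sets. The steadiest member was mRpS2, the counterpart of bacterial S2, with a lowest intensity of 224.3, a median of 232.5 and a highest of 245.4 (SD 0.035 on the log2 scale). Next came mRpL15 (SD 0.054) and mRpL22 (SD 0.055), both with bacterial counterparts. The widest was mRpS18A (SD 0.92), followed by mRpS18C (SD 0.88) and mRpL33 (SD 0.73). The first 2 owed their spread mainly to the array of hour 3, whereas mRpL33 varied across most arrays.

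A straight line asked whether the transcripts declined or increased over the hours of the course. None of the 57 members passed at an adjusted p under 0.05 (limma, 0 of 57), where 0.0477% of all tested probe sets did. At an unadjusted p under 0.05, 3 members had a falling line, where 2.39% of all probe sets did, and 0 had a rising one, where 1.32% did. The fitted change from hour 1 to hour 12 was nevertheless below 0 in 54 of 57 members, or 94.7%, against 63.4% of all tested probe sets. Its median was -0.11 on the log2 scale among members and -0.041 among all tested probe sets. The lean depended on the scaling between arrays. With each array centred on its median, 46 of 57 members lay below 0, beside 49.4% of all probe sets. With quantile normalization 38 of 57 did, beside 46.0% of all probe sets. The median of the members stayed below that of all probe sets, by 0.064 as deposited, by 0.064 with median centring and by 0.046 with quantile normalization, all on the log2 scale. Without the array of hour 10, 45 of 57 members lay below 0, beside 58.6% of all probe sets. Yolk protein genes, made in the fat body and ovary of females, had the same sign over the hours, with 3 of 3 fitted changes below 0, a median of -1.84 on the log2 scale and 3 of 3 unadjusted p under 0.05, though 0 passed after adjustment (limma, lowest adjusted p = 0.937). The other marker lists differed. Neuron markers lay below 0 in 5 of 5 cases (median -0.163) and flight muscle markers in 5 of 6 (-0.028). Midgut markers did so in 5 of 7 (-0.10) and female germline markers in 2 of 3 (-0.070). Eggshell and testis markers lay below 0 in 3 of 6 cases each, with medians of 0.0061 and 0.038. The part of tissue composition in the lean of the mitoribosomal genes was not tested.

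The 3 members with the lowest p for the line were mRpL40, mRpS35 and mRpL10. mRpL40, a protein added in mitochondria, ranged from 125.5 at hour 10 through a median of 138.5 to 151.7 at hour 1. Its fitted change was -0.20 ± 0.07 (log2 ± SE; limma, adjusted p = 0.937). mRpS35, likewise without a bacterial counterpart, ranged from 223.4 at hour 10 through 244.3 to 269.1 at hour 1. Both genes were thus highest on the first array and lowest on that of hour 10. The change of mRpS35 was -0.21 ± 0.08 (adjusted p = 0.937), and that of mRpL10 was -0.21 ± 0.08 (adjusted p = 0.937). Next in order of p among falling lines came mRpL23, mRpL12 and mRpL44 in the large subunit, with -0.36 ± 0.18, -0.19 ± 0.10 and -0.20 ± 0.11, and mRpS16, mRpS30, mRpS18B and mRpS33 in the small one, with -0.16 ± 0.09, -0.14 ± 0.09, -0.13 ± 0.08 and -0.27 ± 0.19 (adjusted p = 0.937 for each). None of these changes passed once all tested probe sets were taken into account. In simulated data the line recovered 0% of changes of 0.3 on the log2 scale and 60.5% of changes of 0.6. The simulated noise was independent between probe sets, whereas whole arrays stood apart in these data. By that simulation a change of the size fitted here could hardly have been called with the line. Its absence from the calls does not show that it is scatter.

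**Figure D2:**
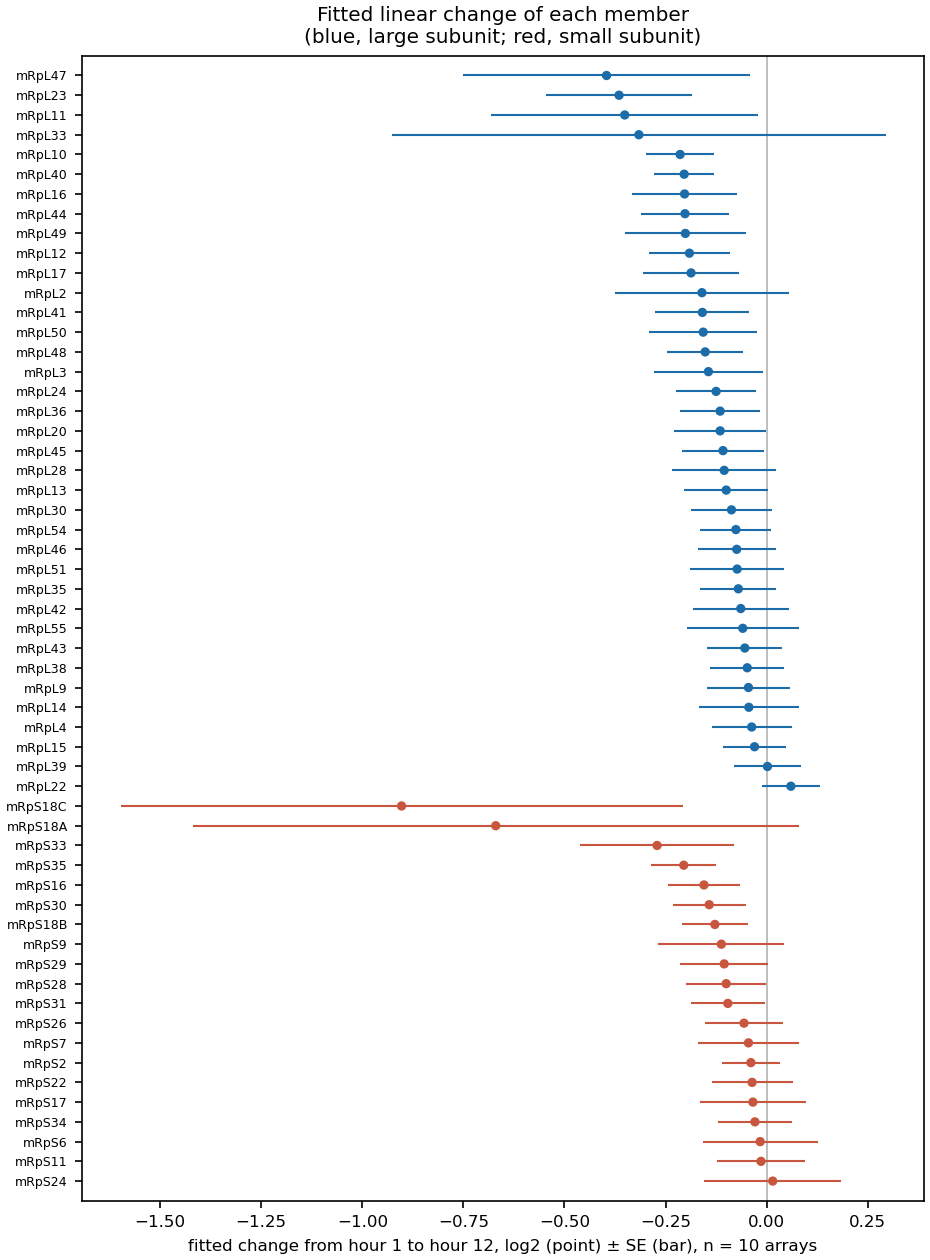
Points give the fitted change of each tested member from hour 1 to hour 12 on the log2 scale, bars 1 SE, from a line through 10 arrays; blue is the large and red the small subunit. Of the 57 points 54 lie left of 0, mRpL39, mRpL22 and mRpS24 lie right of it, and mRpS18A, mRpS18C and mRpL33 have the widest bars.

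The stalk of the large subunit, where translation factors dock, is built from mRpL10, mRpL11 and mRpL12. mRpL10 anchors the stalk and had 153.2, 137.2, 141.8, 135.5 and 148.3 in hours 1 to 6 and 123.6, 129.6, 128.3, 135.2 and 123.2 in hours 7 to 12. Every later value lay below every earlier one, though the closest pair, 135.5 and 135.2, were almost equal. mRpL12, the mobile stalk protein, had 323.3, 329.7, 356, 313.6 and 322.6 in hours 1 to 6 and 271.9, 305.7, 291.9, 304.4 and 299.3 in hours 7 to 12. Its earlier and later values did not overlap either. A dimmer probe set of mRpL12 ran from 132.9 at hour 11 through a median of 144.6 to 190.5 at hour 9, with a fitted change of -0.09 ± 0.17 (adjusted p = 0.959), so the separation was seen with only 1 of the 2 probe sets. mRpL11, at the base of the stalk, stood out only at hour 3, and its second probe set was too dim, at 46.1 to 65.2.

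Proteins of bacterial descent lie near the catalytic centre and along the tunnel through which the new chain leaves. They include mRpL2, mRpL3, mRpL4, mRpL22 and mRpL23. mRpL3, next to the catalytic centre, ranged from 152.4 at hour 10 through 173.7 to 218.5 at hour 6, with a fitted change of -0.14 ± 0.13 (adjusted p = 0.937). mRpL4, in the tunnel wall, ranged from 127 at hour 2 through 135.1 to 161.2 at hour 3. Its change of -0.037 ± 0.099 (adjusted p = 0.970) is a value near 0, and it turned positive with quantile normalization or median centring (0.016 and 0.0058). mRpL22, also in the tunnel wall, ranged only from 142.9 at hour 3 through 152.2 to 159 at hour 2. It had the highest fitted change of all members, 0.06 ± 0.07 (adjusted p = 0.937). mRpL2 and mRpL23 had a single high array at hour 3, as described further on.

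Around the tunnel exit the mitochondrial ribosome carries proteins that bacteria lack, such as mRpL44, which has a fold related to ribonuclease III, and mRpL45, which in mammals contacts the inner membrane. mRpL44 had 135, 127.6, 148.4, 126.3 and 142.6 in hours 1 to 6 and 115.5, 120.8, 110.8, 129.1 and 122.9 in hours 7 to 12. Only the value of hour 11 reached into the earlier range. mRpL45 ranged from 256.7 at hour 10 through 289.7 to 319 at hour 6, and its change was -0.11 ± 0.10 (adjusted p = 0.937). mRpL16, which binds near the transfer RNA sites, ranged from 274.4 at hour 10 through 305.4 to 387.6 at hour 3, with a change of -0.20 ± 0.13 (adjusted p = 0.937). mRpL39, a protein without a bacterial counterpart, had a change of 0.0021 ± 0.082 (adjusted p = 0.998) over a range of 116.4 to 135.4.

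In the small subunit, mRpS7 and mRpS9 belong to the head, which holds the transfer RNAs. mRpS7 ranged from 215.2 at hour 10 through 272.8 to 285.6 at hour 6, and mRpS9 from 182.8 at hour 10 through 238.4 to 281.9 at hour 6. The extremes of both genes thus fell on the same 2 arrays. Their fitted changes were -0.045 ± 0.13 for mRpS7 (adjusted p = 0.970) and -0.11 ± 0.16 for mRpS9 (adjusted p = 0.951). mRpS29, a GTP-binding protein at the face between the subunits, ranged from 207.8 at hour 5 through 224.7 to 268 at hour 3, with a change of -0.11 ± 0.11 (adjusted p = 0.937). mRpS16, the counterpart of bacterial S16, ranged from 225.3 at hour 12 through 239.4 to 269.8 at hour 6, with a change of -0.16 ± 0.09 (adjusted p = 0.937). mRpS24, the counterpart of bacterial S3, was the 1 small-subunit member with a fitted change above 0, 0.015 ± 0.17 (adjusted p = 0.993). Its values fell into a lower set of 469.1 to 502.5 at hours 5, 6, 7 and 11 and a higher one of 547.5 to 637.2 at the other hours.

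tko ranged from 157.8 at hour 7 through 190.8 to 209.9 at hour 3, with a fitted change of -0.07 ± 0.13 (adjusted p = 0.959). bonsai ranged from 138.7 at hour 10 through 158 to 175.8 at hour 6, with a change of -0.18 ± 0.10 (adjusted p = 0.937). The extremes of bonsai fell on the arrays of hours 10 and 6, as those of mRpS7 and mRpS9 did. Adding both genes to the small subunit left its median change at -0.10 on the log2 scale.

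The 5 arrays of hours 7 to 12 were then set against the 5 of hours 1 to 6, which asks for a step in place of a line. None of the 57 members passed (limma, 0 of 57), where 0.0119% of all tested probe sets did. At an unadjusted p under 0.05, 8 members were lower in the later hours, 7 of the large and 1 of the small subunit, where 4.69% of all probe sets were lower, and 0 were higher, where 1.56% were. The values of mRpL10, mRpL12 and mRpS35 were lower without overlap, which makes 3 of 57 members, or 5.26%, beside 1.25% of all tested probe sets. No member was higher without overlap, beside 0.239% of all probe sets. The difference was below 0 in 54 of 57 members and in 63.4% of all probe sets, with a median of -0.10 in the large subunit, -0.075 in the small subunit and -0.033 among all tested probe sets.

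The 8 genes were mRpL10, mRpL44, mRpS35, mRpL12, mRpL40, mRpL48, mRpL3 and mRpL49. mRpL10 had a mean of 143.2 ± 7.48 (SD, n = 5 arrays) in the earlier and 128 ± 4.94 in the later hours. Its difference was -0.16 ± 0.05 (log2 ± SE; limma, adjusted p = 0.646). mRpL44 had 136 ± 9.51 and 119.8 ± 7.01, with a difference of -0.18 ± 0.06 (adjusted p = 0.681). These were the 2 lowest adjusted p-values among members, and neither comes near the threshold. mRpS35 had 269.1, 248.7, 258.8, 246.9 and 262.3 in hours 1 to 6 and 241.7, 230.7, 223.4, 240.7 and 229.5 in hours 7 to 12, with a difference of -0.14 ± 0.05 (adjusted p = 0.719). mRpL12 had a difference of -0.16 ± 0.06 (adjusted p = 0.737), and mRpL40, with 145.1 ± 6.38 and 132.5 ± 5.84, one of -0.13 ± 0.05 (adjusted p = 0.741). The largest step among the 8 was that of mRpL49, -0.20 ± 0.09 on the log2 scale (adjusted p = 0.791).

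A curved course, which can fall and return, also called 0 of 57 members and 0% of all tested probe sets (limma F test over a spline). At an unadjusted p under 0.05 it called 0 members, where 1.62% of all probe sets were called. The lowest p of members were 0.0787 for mRpS30 and 0.0818 for mRpL33. mRpS30, which despite its name sits in the large subunit in mammals, began at 168.7 and 159 in hours 1 and 2, reached its lowest value of 133.9 at hour 5 and ended at 151. The fitted changes of the line over all 57 members had quartiles of -0.19 and -0.048 on the log2 scale.

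The courses of the large and the small subunit lay close together. The fitted change was below 0 in 35 of 37 mRpL members, with a median of -0.12 on the log2 scale, and in 19 of 20 mRpS members, with a median of -0.098. With quantile normalization these counts were 26 of 37 and 12 of 20, and with median centring 33 of 37 and 13 of 20. Members with a bacterial counterpart lay below 0 in 32 of 34 cases (median -0.11), and those added in mitochondria in 22 of 23 (median -0.096). Structures of the mitochondrial ribosome place mRpS18A and mRpS30 in the large subunit, and counting them there gave 37 of 39 and 17 of 18. As a mean over members, relative to each gene's own mean over the 10 arrays, the large subunit stood at 0.12 at hour 6 and -0.17 at hour 10, and the small subunit at 0.069 and -0.16.

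With members assigned by symbol, the means parted most at hour 3, with 0.17 in the large and 0.28 in the small subunit, a difference of -0.12. mRpS18A, counted here with the small subunit, stood 2.47 above its own mean on that array. The size and direction of this gap therefore depend on where that gene is counted. On the other 9 arrays the difference of the means lay between -0.029 and 0.05. The medians over members, 0.048 and 0.054 at hour 3, hardly parted there, and their difference lay between -0.042 and 0.054 over all 10 arrays. By the medians, the gap between the subunits at hour 3 was thus carried by a few genes. Left without the 7 members that were high at hour 3, 32 mRpL and 18 mRpS members had means of 0.064 and 0.042 on that array. Those 7 were picked by that same array, so lower means without them were fixed in advance. No test of the subunits against each other was made, since a score over chosen genes has no replicate of its own.

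**Figure D3:**
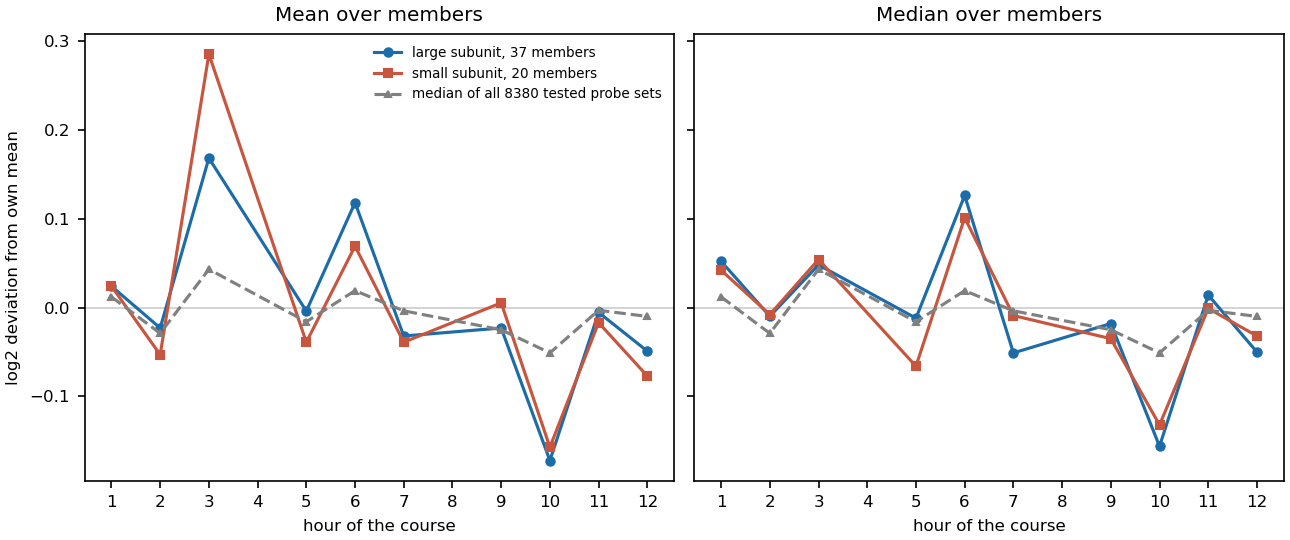
Lines give the deviation from each gene's own mean over the 10 arrays, in log2, averaged over the 37 large-subunit and 20 small-subunit members (left, mean; right, median), with the median of all 8380 tested probe sets in grey. The subunits run together with a high at hour 6 and a low at hour 10, and the high of the mean at hour 3, 0.28 in the small subunit, is 0.054 in the median.

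Hour 10 held the lowest value of 28 of 57 members, or 49.1%, against 22.7% of all tested probe sets. It did so for 21 of the 37 mRpL and 7 of the 20 mRpS members, and 53 of 57 members, or 93%, lay below their own mean there, against 64% of all probe sets. The median deviation on that array was -0.16 in the large subunit, -0.13 in the small subunit and -0.051 among all tested probe sets. With quantile normalization hour 10 held the lowest value of 13 of 57 members, beside 11.6% of all probe sets, and with median centring of 20, beside 15.7%. Hour 12 came next, with the lowest value of 8 members, or 14%, against 6.61% of all probe sets. Most of these lows were shallow, since only 7 members, or 12.3%, lay at least 0.25 below the median of their other arrays at hour 10, against 14.9% of all tested probe sets.

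Those 7 were picked by their values and are given as a description. mRpL33, a small protein of bacterial descent on the side where transfer RNAs leave, stood at 119.7 at hour 10 and between 188.5 and 646.2 elsewhere, a deviation of -1.62 on the log2 scale from the median of its other arrays. mRpS33, a protein without a bacterial counterpart, stood at 87.7 against 112.6 to 164 (-0.56). mRpL55, also added in mitochondria, stood at 286 against 346.7 to 403.7 (-0.39). In all 3 genes the value of hour 10 lay below each of the other 9. mRpS9 (-0.39), mRpS7 (-0.35), mRpL41 (-0.30) and mRpL42 (-0.28) were the others, and all 4 had their lowest value on this array.

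Some other transcripts were low at hour 10 too. The mean deviation there was -0.25 over the nuclear genes for subunits of oxidative phosphorylation, -0.25 over genes of mitochondrial protein import, -0.28 over flight muscle markers and -0.10 over the proteins of the cytosolic ribosome. Female germline markers stood at -0.21. Testis markers stood at -0.16, but this was no low of that array. They lay between -0.19 and -0.13 on every array except that of hour 7, at 1.38. Midgut, neuron and eggshell markers stood at -0.037, -0.021 and 0.013, beside -0.069 over all tested probe sets. Flight muscle markers were lower still at hour 9, at -0.32, where the members stood at -0.013. The summed intensity of the 3 yolk protein genes was 615.4 at hour 10, their lowest, against a median of 956.7. The high GAPDH ratio fell on the same array. With that ratio as a covariate 49 of 57 fitted changes of members lay below 0, beside 60.9% of all probe sets, and the part of RNA quality or tissue composition in the low of hour 10 was not tested.

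Hour 6 held the highest value of 22 of 57 members, or 38.6%, against 18.8% of all tested probe sets, and 49 members, or 86%, lay above their own mean there, against 55.4% of all probe sets. The share was alike in the subunits, 15 of 37 and 7 of 20. Examples are mRpL28, with 345.5 at hour 6 over a median of 283.1, mRpL3, with 218.5 over 173.7, and mRpL49, with 287.1 over 224.1. Hour 3 held the highest value of 15 members, or 26.3%, against 30.8% of all probe sets, a share near the background. The oxidative phosphorylation genes also stood above their own means at hour 6, by 0.15 as a mean. Female germline and yolk markers were high on the same array, whereas eggshell and testis markers were not. Flight muscle, midgut and neuron markers stood at 0.135, 0.12 and 0.098 there as a mean. Testis markers stood at -0.17, beside 0.034 over all tested probe sets. The 6 tested eggshell genes had a mean deviation of -0.042 there, and 2 of 6 lay above their own mean. The 7 female germline markers, of which 3 were bright enough to test, had their highest summed intensity there, 1484.0 against a median of 1124.8 and a lowest of 950.7 at hour 10, and the yolk protein genes stood 0.96 above their own means. The yolk protein genes were higher still at hour 1, at 1.69, where the members stood at 0.024. No listed marker was at 0, and the part of tissue composition in the high of hour 6 was not tested.

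**Figure D4:**
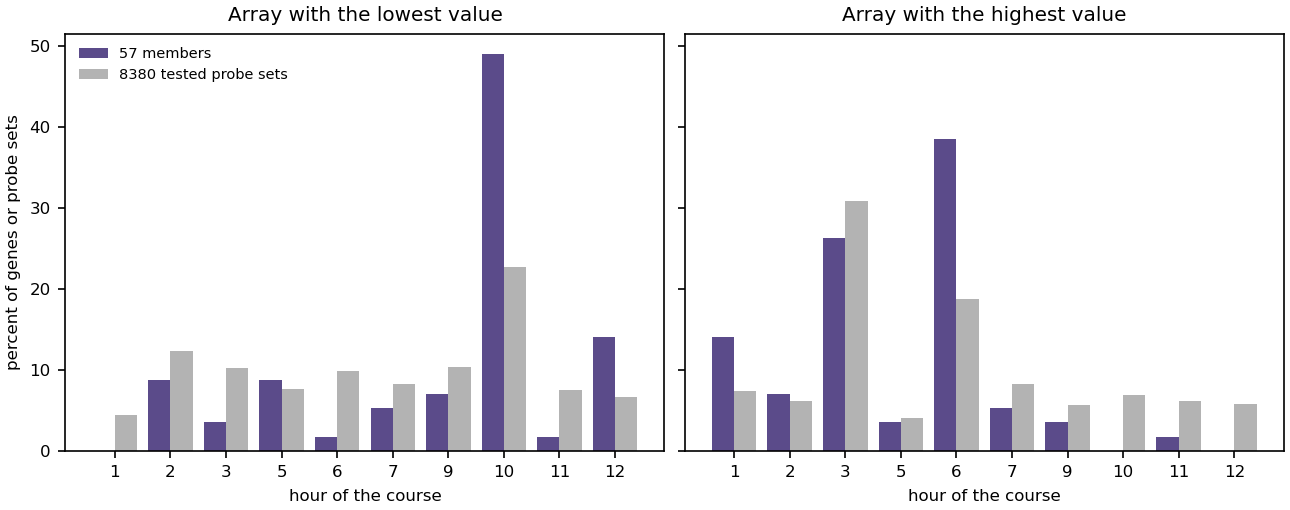
Bars give the percentage of the 57 tested members (purple) and of all 8380 tested probe sets (grey) whose lowest (left) or highest (right) intensity fell on the array of each hour. Hour 10 holds the lowest value of 49.1% of members and 22.7% of probe sets, and hour 6 the highest of 38.6% and 18.8%.

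At hour 3, 7 of 57 members, or 12.3%, stood at least 0.5 on the log2 scale above the median of their other arrays, against 10.9% of all tested probe sets, so this share is near the background. They were 5 mRpL and 2 mRpS genes, all with bacterial counterparts, and were picked by their values. Among all 57 tested members 34 have such a counterpart. mRpS18A, 1 of 3 fly counterparts of bacterial S18, stood at 3418.8 at hour 3, which was 6.91 times the median of its other arrays. Its next highest value was 845.1 at hour 9, and the remaining 8 arrays ranged from 407.7 to 561.5. mRpS18C, another S18 counterpart, stood at 1362.6 at hour 3, or 6.75 times that median, at 246.3 at hour 9, and from 176 to 211.6 elsewhere. In both genes hour 9 was thus the next highest array. The remaining S18 counterpart, mRpS18B, was at 163.3 at hour 3, within its range of 141.8 to 173.3. A line through all 10 arrays gave mRpS18A a change of -0.67 ± 0.75 (adjusted p = 0.937), which became 0.16 without the array of hour 3, and gave mRpS18C -0.90 ± 0.70 (adjusted p = 0.937), which became -0.10.

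mRpL47, which sits by the tunnel exit, stood at 653.1 at hour 3, or 2.56 times the median of its other arrays, at 330.6 at hour 9, and from 240.1 to 309.8 elsewhere. mRpL11 stood at 405.9 against 156.6 to 229.4 on the other arrays, 2.31 times. mRpL2, which helps to place the transfer RNAs, stood at 989.2 against 550 to 635.6, 1.71 times. mRpL23, at the tunnel exit, stood at 325.5 against 188.8 to 241.9, 1.61 times. In these 4 genes the array of hour 3 lay above all 9 others. Without that array the fitted change went from -0.40 to -0.016 in mRpL47 and from -0.35 to -0.0091 in mRpL11. The change of mRpL2 was -0.16 ± 0.22 with all arrays and 0.069 without that of hour 3, and that of mRpL23 was -0.36 ± 0.18 and -0.19 (adjusted p = 0.937 with all arrays).

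mRpL33 differed from the other 6, since its value of 507.8 at hour 3 was exceeded by 646.2 at hour 7. Over the hours it ran from 188.5 and 273.7 in hours 1 and 2 through 507.8, 379, 436.1 and 646.2 in hours 3 to 7 to 367.1, 119.7, 212.3 and 338.2 in hours 9 to 12. Its highest value was 5.40 times its lowest. The fitted change was -0.32 ± 0.61 (adjusted p = 0.959), and 0.12 without the array of hour 10. On the array of hour 7 the 10 genes of the testis marker list, none of them listed at 0, summed to 4289.7 against a median of 1736.4, and the part of testis RNA in the value of mRpL33 was not tested.

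For 5 of the 7 genes the gene table places another gene over part of the same locus, and whether the probes tell the overlapping transcripts apart was not tested. CG8461, which overlaps mRpL11, was also high at hour 3, with 197.6 against 101 to 116.2 on the other arrays. Rlb1, which overlaps mRpL47, had 233.2 against 143 to 165.3. In both pairs the neighbour's highest array was that of its mitoribosomal partner. That array held the highest value of 30.8% of all tested probe sets. CG8993, which overlaps mRpL23, was not high there, with 225.7 within a range of 201.3 to 254.5. CG15536 and Ufd1, which overlap mRpS18C and mRpL2, were too dim to test. No overlapping gene was found for mRpS18A or mRpL33.

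**Figure D5:**
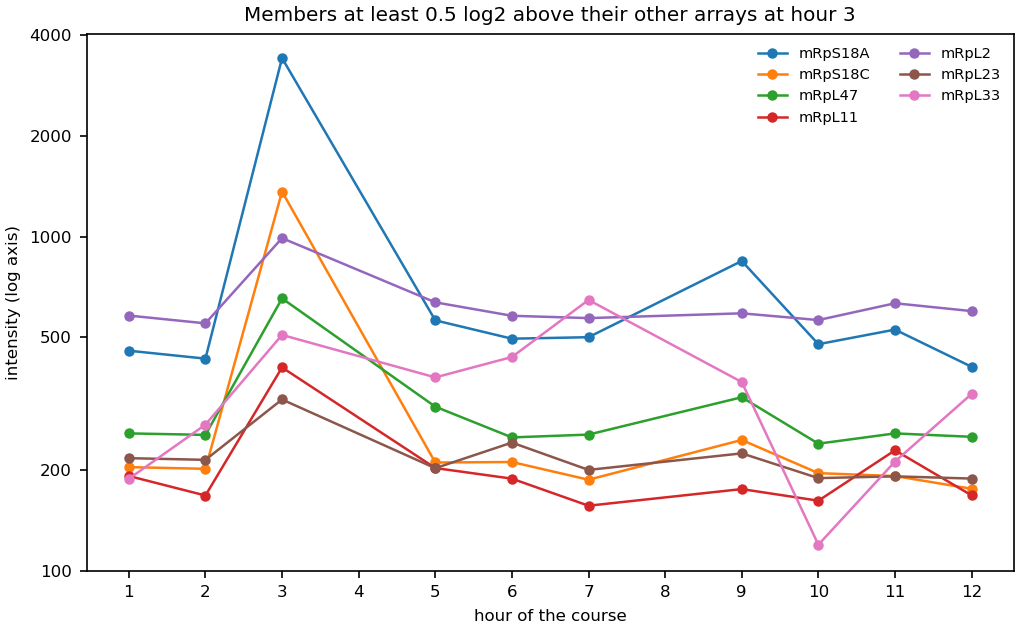
Points give the intensity, on a log axis, of the 7 members at least 0.5 on the log2 scale above the median of their other arrays at hour 3, by hour of the course. mRpS18A peaks at 3418.8 and mRpS18C at 1362.6 at hour 3, with smaller highs at hour 9, while mRpL33 peaks at 646.2 at hour 7 and is lowest, at 119.7, at hour 10.

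Other gene groups of mitochondria were read from the same fit, and none of their members passed for the line over the hours. Among nuclear genes for subunits of oxidative phosphorylation, many of whose partners the mitochondrial ribosome makes, 51 of 58 tested genes had a fitted change below 0, with a median of -0.12 on the log2 scale. Among genes of mitochondrial protein import it was 8 of 9 (median -0.078), and among genes for transcription and maintenance of the mitochondrial genome 6 of 9 (-0.063). Mitochondrial aminoacyl-tRNA synthetases, which charge the transfer RNAs for this ribosome, lay below 0 in 4 of 7 cases (-0.011), and mitochondrial translation factors in 2 of 4 (0.0047). The shift of the mitoribosomal genes was thus close in size to that of the respiratory chain, while the few tested factors and synthetases stood near 0. The proteins of the cytosolic ribosome lay below 0 in 21 of 33 cases, or 63.6%, a share like that of all probe sets, with a median of -0.031. No difference between these groups was tested. Of the regulators of nuclear genes for mitochondria, ewg (44.4 to 86.5) and Ets97D (48.6 to 58.9) were too dim to test, and srl and Myc were named by no probe set used here.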

How the data were processed

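Per the labels, total RNA of whole flies was extracted with Trizol and hybridised by a core facility, and dChip was used by the authors to normalize the arrays through probes of stable rank. Neither its version nor its expression model is given there. The deposited table holds linear intensities of 14010 probe sets on 10 arrays, all of them used. Such scaling can remove a shift common to most transcripts, but a part remained in the deposited values. The array medians ran from 111.1 to 120. Of all tested probe sets, 63.4% had a fitted change below 0 as deposited and 49.4% with median centring. Leaving out 44 control probe sets, the platform annotation named 1 gene for 12443 probe sets, several for 327 and none for 1196. Symbols were updated by Entrez identifier from the gene table of Release 6 for 12394, and 49 were kept. Coordinates are left out because the files name no build.

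Intensities under the 20th percentile, 57.2, were set to it before log2, so folds of dim genes are understated. Probe sets with a mean log2 at or above the 40th percentile, an intensity of 93.8, were tested, 8380 in all. Fits used limma 3.58.1 in R 4.3.3 (lmFit, eBayes with an intensity trend): a slope on the hour, scaled to the 11 hours between the first and the last array; hours 7 to 12 against 1 to 6; and a natural spline with 3 degrees of freedom. Two-sided p-values were adjusted by Benjamini-Hochberg over all tested probe sets, with 0.05 as the limit. The code was tested on simulated data with 200 changed probe sets and noise drawn independently for each probe set. Of changes of 0.3 on the log2 scale, the line recovered 0%, the step 30.5% and the curve 0%. Of changes of 0.6, they recovered 60.5%, 87.5% and 36.5%. Subunit courses and counts of lows and highs are descriptions without a test.

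The members and all lists were chosen with earlier results of these data known. Genes were named by rule: per subunit the 5 lowest p of falling and up to 3 of rising lines, the 3 lowest of the step, the 3 lowest of the curve over all members, genes of known place in the ribosome, members with 2 probe sets or too dim, tko, bonsai and 4 regulators. Members singled out at hours 3, 6 or 10, the steadiest and the widest were chosen after their values were seen. Alternatives changed the scaling between arrays, the floor, the filter, the variance model, the time variable, the split, the curve, the covariate, the probe set and subunit rules and the arrays used. Precision is limited by the number of arrays.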

Additional observations from a re-analysis of the deposited data

Results flagged for a closer look

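A value was singled out where its distance to the next array, divided by the range over the 10 arrays, was above Dixon's critical value of 0.466. Of 41 series of values examined (the named members and the 2 subunit means), 10 had such an array, 8 of them that of hour 3 and 2 that of hour 10. Chance alone gives about 1 in 20, which leaves out that whole arrays stood apart. Hour 3 held the highest value of 30.8% of all 8380 tested probe sets and hour 10 the lowest of 22.7%. The share flagged by this rule over all tested probe sets was not computed, so the count says nothing particular to the members. These genes were also named partly for their values.

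The highest value, at hour 3, stood apart for mRpS18A (3418.8, next 845.1), mRpS18C (1362.6, next 246.3), mRpL2 (989.2, next 635.6), mRpL47 (653.1, next 330.6), mRpL11 (405.9, next 229.4), mRpL23 (325.5, next 241.9) and mRpL4 (161.2, next 144.7). The mean deviation of the small subunit at hour 3, 0.2849 on the log2 scale, stood apart as well (next 0.0686). The lowest value, at hour 10, stood apart for mRpL55 (286, next 346.7) and mRpS7 (215.2, next 248.1).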

How the results depend on the processing

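No member passed any of the 3 tests under any alternative run, the exclusion of each array in turn included. The medians of both subunits also kept their sign, from -0.151 to -0.078 (mRpL) and from -0.131 to -0.059 (mRpS) when 1 array was left out. No paired analysis was possible because all arrays belong to 1 group and share no replicate numbers. With quantile normalization 12 of 20 mRpS changes lay below 0, and 13 members were lowest at hour 10. With the median in place of the mean, the deviation at hour 3 was 0.048 (mRpL) and 0.054 (mRpS). Left out in turn, single arrays gave 31 to 36 mRpL and 14 to 20 mRpS changes below 0, the lowest counts without hour 10. Alternatives added after seeing the data were the exclusion of hours 3 and 10, the exclusion of hours 3 and 7 for the counts of lows, the GAPDH covariate and the median deviation. Without hours 3 and 10, 41 of 57 changes lay below 0 (27 mRpL, 14 mRpS), with a median of -0.044, beside 52.6% and -0.0064 over all probe sets.

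The fitted change of single genes reversed in sign, always far from the threshold. Only members named in the text were followed singly, so the reversals given here are not complete, and over all 57 members the count below 0 went from 54 to 38 with quantile normalization and to 46 with median centring. Without hours 3 and 10 it was 0.045 for mRpL11, 0.096 for mRpL2, 0.336 for mRpL33, 0.042 for mRpL4, 0.016 for mRpL42, 0.033 for mRpL47, 0.045 for mRpL55, 0.203 for mRpS18A and 0.014 for mRpS7. With quantile normalization it was 0.016 for mRpL4, 0.0083 for mRpL42, 0.020 for mRpL55, 0.027 for mRpS2 and 0.022 for mRpS7, and with median centring 0.0058 for mRpL4 and 0.0039 for mRpS2. With the GAPDH ratio as a covariate it was 0.00037 for mRpL33, 0.0034 for mRpL55 and 0.0031 for mRpS7. Leaving out 1 array gave ranges across 0 for mRpL2 (-0.281 to 0.069), mRpL33 (-0.843 to 0.124), mRpL39 (-0.028 to 0.051), mRpL4 (-0.102 to 0.043), mRpL42 (-0.143 to 0.0064), mRpL55 (-0.115 to 0.056), mRpS18A (-1.097 to 0.155), mRpS24 (-0.051 to 0.104), mRpS7 (-0.105 to 0.050) and mRpS9 (-0.205 to 0.0049). Apart from the arrays left out, the cause was not tested. Over all probe sets, the 4 calls of the line became 0 to 2 without 1 array, 0 with either control ratio as a covariate or no filter, 1 with an offset or without hours 3 and 10, and 2 with the array order. The 1 call of the step became 0 to 3 over its alternatives, and the 0 of the curve became 4 with a quadratic, none of them a member. The number of arrays, with 1 an hour, limits the precision of every fit.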

Other observations

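Among the related gene groups, the 9 tested genes for transcription and maintenance of the mitochondrial genome stood above their own means on the array of hour 3, by 0.34 on the log2 scale as a mean and by 0.16 as a median. On the same array the median of all tested probe sets was 0.043, that of the mitoribosomal members 0.052 and that of the oxidative phosphorylation genes 0.057. Within the mitochondrial ribosome the members with a bacterial counterpart had a mean of 0.32 at hour 3 and those added in mitochondria 0.044. Their medians were 0.072 and 0.029. The members picked as high at hour 3 all have a bacterial counterpart, so they enter the first mean. On the array of hour 9 the oxidative phosphorylation genes lay at a median of -0.12, whereas the medians of the large and small mitoribosomal subunit were -0.018 and -0.035. These are descriptions of single arrays without a test.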
